A study of Mus musculus with 34 samples.

Results

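The libraries compared here were made from colonic macrophages of mice titled IL10R_P19 and IL10R, that is, macrophages from mice labelled as deficient in the interleukin-10 receptor (Il10ra) with and without a further loss of p19. They were chosen by their titles: 4 libraries titled IL10R_P19 (P19_100, P19_105, P19_106 and P19_107 below, after the number in each title) and 5 titled IL10R without antibiotics (27, 32, 61, 67 and 68), so 9 of the 34 samples of the series. A pair of libraries titled CX (1 and 3) is set beside them as the control of the same table. All 11 came from the colonic lamina propria of untreated C57BL/6 mice aged 6-7 weeks and were sorted as CD45+CD11b+CD11c intermediate CD64+Ly6c-CD103- cells. The titles of both IL10R groups also carry the code 5C5, which the CX titles do not. The labels give neither the alleles, nor a promoter or Cre driver, nor the meaning of CX and 5C5, nor whether p19 was missing from the whole animal or from some cells only. Nor do they tie each library to an animal of its own, so the p-values below measure the spread between libraries, which may in part be technical. The main fit takes that spread from all 18 libraries of the same table, antibiotic-treated ones included.

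Interleukin-23 (IL-23) is a cytokine made by macrophages and dendritic cells from 2 chains, p19 (encoded by Il23a) and p40 (Il12b), the second of which it shares with IL-12. It acts on T cells and innate lymphoid cells that carry its receptor, and these release IL-22 and IL-17. IL-22 in turn acts on epithelial cells through STAT3 and switches on secreted antimicrobial proteins such as the Reg3 lectins. IL-10, acting through its receptor on intestinal macrophages, restrains their output of such cytokines. The question, as the title of the series puts the study's subject, was what is left of the expression profile of receptor-deficient macrophages when p19 is also missing.

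Expression values are the reads of a gene divided by a factor for its library (normalised reads), and 1 read was worth between 0.508 and 1.30 normalised reads in these 9 libraries, which held 1100692 to 2775974 reads. Differences are log2(normalised reads + 0.997), IL10R_P19 minus IL10R, from a limma fit, and a gene was called at a Benjamini-Hochberg adjusted p under 0.05. Cd68, Csf1r, Adgre1 and C1qa, all macrophage genes, were found in all 9 libraries, and so were epithelial genes such as Krt8 and Epcam. A first principal component of the IL10R, IL10R_P19 and CX libraries held 49.2% of the variance and placed the IL10R libraries between -35.4 and -1.8, the IL10R_P19 libraries between 1.0 and 18.2 and the CX libraries at 27.3 and 23.3. IL10R library 68 (-1.8) and P19_100 (1.0) lay nearest the other group on this component and next to each other. IL10R library 27 (-35.4) lay farthest out and was also the highest on the second component (20.8, 15.7% of the variance). Library quality weights were 0.4945 for IL10R library 27, 0.4971 for P19_100 and 1.193 for IL10R library 68. The main counts are also given with each library left out in turn.

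In the IL10R_P19 libraries, 8 of 22 tested genes of IL-22 and tissue defence were lower, and 18 of 39 tested genes of resident tissue macrophages were higher, than in the IL10R libraries. The other tested members were not called, except that the defence gene Reg4 was higher. Some of the lower defence genes passed the filter on low values through their IL10R levels alone, as given below. Reg3b, Reg3g, Clca4b, Lrg1 and Nos2 had the lowest log2 differences among called genes, from -7.39 to -4.09. Mrc1 (the mannose receptor), Igf1 (a growth factor), Fcgrt (an IgG-salvaging receptor) and Ptgs1 (cyclooxygenase) were among those with the smallest adjusted p. Of 6612 genes tested, 2.43% were called: 127 (1.92%) were higher and 34 (0.514%) lower with p19 missing. Of those called, 47 of the higher and 17 of the lower genes differed at least 2-fold on the log2 scale used, and in 83 and 30 of them the 2 groups did not overlap. Among all genes tested, all IL10R_P19 libraries lay above all IL10R libraries in 269 (4.07%) and below them in 302 (4.57%). At an unadjusted limma p under 0.05, 659 of the 6612 genes were higher and 437 lower. The counts at that level given below for single lists are to be read beside these.

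**Figure D1:**
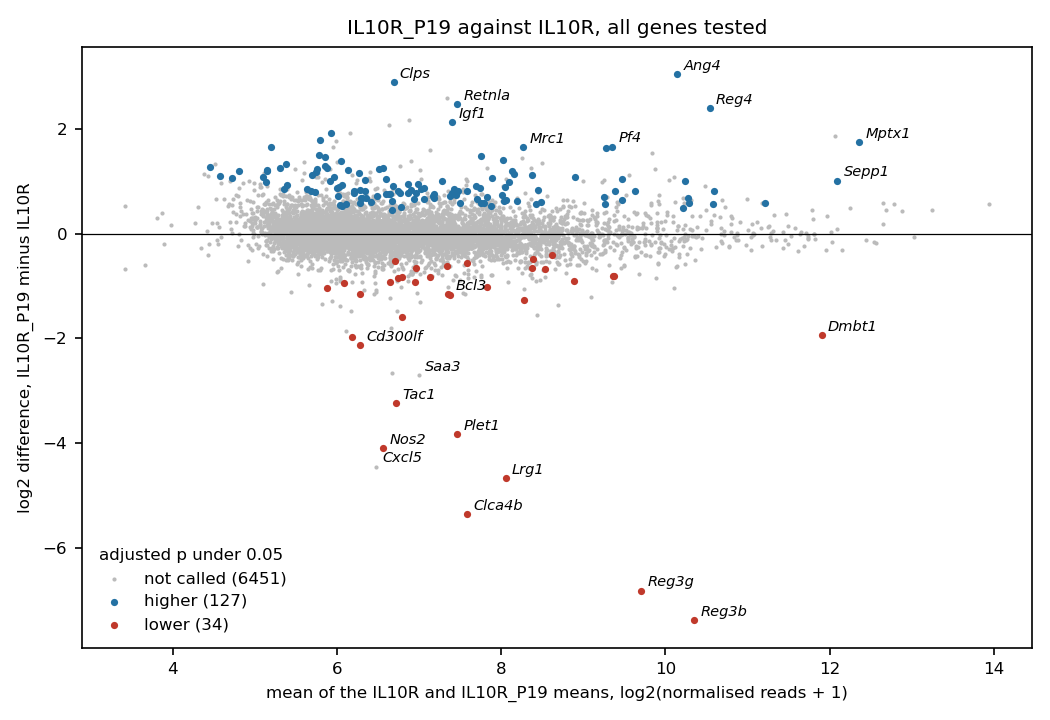
Each point is a gene tested, with its mean level in both groups on the horizontal axis and its log2 difference (IL10R_P19 minus IL10R) on the vertical axis. The 127 genes called higher are blue and the 34 called lower are red; Reg3b and Reg3g lie lowest, at -7.39 and -6.82.

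The number of calls rested on every library. It was 101, 53, 96, 69 and 290 without IL10R library 27, 32, 61, 67 and 68, and 380, 47, 23 and 17 without P19_100, P19_105, P19_106 and P19_107. Leaving out IL10R library 68 or P19_100, each the nearest of its group to the other group, thus raised the count, and leaving out any other lowered it. Because those libraries were singled out by that position in the same data, the rise is no support for the calls. Every called gene that had a value kept its direction in each of these 9 fits. The call itself was kept in all of them by 15 genes, of which 14 were higher (among them Mrc1, Igf1, Slc9a9, Ptgs1, Man1c1, Fcgrt, Hfe, Rab11fip5, Clec10a, Cd84, Fcgr3, P2rx7 and Lpxn) and 1 lower (Dmbt1). Count tests on the recovered reads called more genes, 353 with edgeR (214 higher, 139 lower) and 562 with DESeq2 (311 higher, 251 lower), and 155 and 157 of the genes called by limma were among them in the same direction.

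The receptor itself was low in both groups. Il10ra stood at 31.2, 15.6, 11, 4.56 and 11.3 normalised reads in IL10R libraries 27, 32, 61, 67 and 68, and at 12.2, 3.81, 6.51 and 12.2 in P19_100, P19_105, P19_106 and P19_107. The CX libraries held 248 and 284, far above all 9. Between the IL10R groups the Il10ra log2 difference was -0.59 with a standard error (SE) of 0.50 and a limma adjusted p of 0.60. Il23a, Il12a and Il23r were not analysed here, so the loss of p19 rests on the labels alone.

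Il12b, which encodes the p40 chain, stood at 42.9, 33.2, 42.5, 12.9 and 8.85 normalised reads in the IL10R libraries, in the order above. It was 0, 11.4, 2.6 and 4.57 in the IL10R_P19 libraries and 3.11 and 1.71 in CX. Only the lowest IL10R library, 68, lay within the range of the IL10R_P19 group. The mean of Il12b fell below the filter on low genes; fitted without that filter its log2 difference was -2.63, with a limma adjusted p of 0.053, and the count tests gave 0.021 (edgeR) and 0.0017 (DESeq2).

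None of the 14 tested members of the IL-23, IL-12 and IL-10 pathway list was called by limma, with a median log2 difference of -0.15 against -0.003 over all genes. At an unadjusted p under 0.05, 4 were higher and 1 lower, against 659 and 437 of all 6612 genes. edgeR and DESeq2 each called 3 higher and none lower. Il10 was the member whose groups did not overlap, at 18.2, 15.6, 13.7, 19.7 and 24.1 in IL10R and 24.3, 34.3, 58.6 and 34.0 in IL10R_P19, with CX at 59.0 and 48.4. Its log2 difference was 0.96 (SE 0.26, limma adjusted p 0.056). Il10 was called without IL10R library 68 (adjusted p 0.032), without P19_100 (0.017) and by edgeR (0.031), but in 13 of 18 refits it stayed not called. IL10R library 68 and P19_100 were singled out as the nearest to the other group, so the calls without them are no independent support. The signalling members Jak1, Tyk2, Stat3 and Socs3 had log2 differences of 0.13, 0.09, -0.23 and -0.50 with adjusted p between 0.30 and 0.79.

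The transcripts with the lowest log2 differences belonged to the list of IL-22 and tissue defence genes. Of 38 genes on that list 35 had a row in the table, 22 passed the filter on low values, 8 fell and 1 (Reg4) rose. The median of the 22 was -1.30, and in 9 of them all IL10R_P19 libraries lay below all IL10R libraries, against 4.57% of all genes tested. The 8 that fell were Reg3b, Reg3g, Clca4b, Lrg1, Nos2, Plet1, Dmbt1 and Tifa. Most of these are known chiefly from gut epithelium, and the list was drawn up with earlier results of these data known, so its count is no independent evidence of a direction. The filter used the mean over all 18 libraries, so a gene could pass it on its IL10R values alone. Outside IL10R, no group mean of Reg3g, Clca4b, Lrg1, Nos2 or Plet1 was above 23.7 (Reg3g, IL10R_abx), against a filter cut of 40.4. The counts and the median of the tested members therefore give no support for a direction either.

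Reg3b and Reg3g encode secreted C-type lectins that bind bacteria and are textbook targets of IL-22 in the gut. The 250 bases before their RefSeq start sites (GRCm38.p6) are shown because the 2 genes, both on chromosome 6, fell together. The letters TTCNNNGAA, the core recognised by STAT factors, are in capitals, and this pattern reads the same on both strands. Reg3b lies on the plus strand (chr6:78370635-78370884) and Reg3g on the minus strand (chr6:78468875-78469124), and each is written 5′ to 3′ towards its gene.
Reg3b: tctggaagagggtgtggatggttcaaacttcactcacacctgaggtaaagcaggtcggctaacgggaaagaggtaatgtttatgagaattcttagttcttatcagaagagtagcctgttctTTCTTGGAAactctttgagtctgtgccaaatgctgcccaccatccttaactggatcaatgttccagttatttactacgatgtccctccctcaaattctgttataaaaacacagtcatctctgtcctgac
Reg3g: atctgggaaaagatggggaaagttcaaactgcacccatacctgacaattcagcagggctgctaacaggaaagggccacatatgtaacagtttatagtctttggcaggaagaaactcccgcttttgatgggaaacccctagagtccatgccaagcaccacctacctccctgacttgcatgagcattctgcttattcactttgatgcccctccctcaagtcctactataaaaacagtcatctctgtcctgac
Aligned, the 2 windows shared 173 of 253 columns (68.4%). The pattern occurred once in the Reg3b window, starting 129 bases before the gene, and its letters are not in the Reg3g window. Over windows of the full length in the RefSeq table, from 250 bases before to 50 after a start, 9.6% of 27025 genes held the pattern, against 8.0% of 5340 tested genes with such a window, 7.8% of 103 called higher and 10.3% of 29 called lower.

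Reg3b stood at 7459, 258, 1535, 2808 and 821 normalised reads in IL10R libraries 27, 32, 61, 67 and 68 and at 8.70, 87.5, 1.30 and 2.03 in P19_100, P19_105, P19_106 and P19_107. The highest IL10R_P19 library, P19_105, thus lay below the lowest IL10R library, and the CX libraries held 1.04 and 0.569. The log2 difference of Reg3b was -7.39 (SE 1.38, limma adjusted p 0.012). Reg3g followed the same order of libraries within both groups, at 5368, 133, 744, 1753 and 299 against 13, 26.6, 1.30 and 1.52, with CX at 3.11 and 1.71. Its log2 difference was -6.82 (SE 1.18, adjusted p 0.011).

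Clca4b, a calcium-activated chloride channel regulator, was at 915, 319, 346, 289 and 18.5 in IL10R and 3.48, 9.52, 3.91 and 3.05 in IL10R_P19. Lrg1, a leucine-rich glycoprotein of the acute-phase type, was at 1895, 188, 225, 277 and 19.3 against 7.83, 8.56, 13.7 and 3.05. In both genes IL10R library 68 came closest to the IL10R_P19 group without reaching it. The log2 difference of Clca4b was -5.35 (SE 0.99, adjusted p 0.011) and that of Lrg1 was -4.67 (SE 0.81, adjusted p 0.0090).

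Nos2, the inducible nitric oxide synthase that macrophages and epithelium both use against microbes, was at 434, 237, 164, 53.9 and 16.9 in IL10R and 11.3, 4.76, 2.6 and 6.10 in IL10R_P19. CX held 0 and 0.569. Its log2 difference was -4.09 (SE 0.88, limma adjusted p 0.018). Ass1, the enzyme that rebuilds arginine, the substrate of Nos2, fell from 78.0 ± 16.9 (SD, n = 5) to 37.4 ± 6.24 (SD, n = 4), a log2 difference of -1.03 (adjusted p 0.023). Ass1 had a value in 5 such fits and lost its call in 3, without P19_105, P19_106 or P19_107 (limma adjusted p 0.10 at the highest).

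Dmbt1, a secreted mucin-like scavenger receptor of epithelium, was the most abundant of the 8 and was at 8977, 6464, 5732, 6091 and 3131 in IL10R and 1895, 1952, 911 and 1510 in IL10R_P19. The CX libraries held 1072 and 1362, within the range of the IL10R_P19 libraries. Its log2 difference was -1.94 (SE 0.34, limma adjusted p 0.011). Plet1, a surface protein of epithelial progenitors, had a log2 difference of -3.83 (SE 0.77, adjusted p 0.013) and Tifa, an adaptor for bacterial sugar sensing, one of -0.93 (SE 0.23, adjusted p 0.041).

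The count of 8 depended on single libraries. With each library left out in turn, the list held between 1 and 12 called members in all, against 9. It held 1 without P19_107, 4 without P19_106, 6 without P19_105 and without each of IL10R libraries 27, 32 and 61, 8 without P19_100 or IL10R library 67, and 12 without IL10R library 68. Dmbt1 alone of the 8 kept its call in every such fit, while Reg3b had an adjusted p of 0.061 and 0.067 without P19_106 and P19_107 and Reg3g one of 0.053 without P19_107. Over those fits the Reg3b log2 difference stayed between -8.50 and -6.74 and that of Reg3g between -7.49 and -6.12. edgeR called 10 tested members lower and DESeq2 12, and neither called one higher. A limma fit of the 2 groups alone called 8 lower and none higher, but Lrg1 (adjusted p 0.064) and Plet1 (0.058) were not called in it.

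Of the 13 members below the filter, Duoxa2 (a maturation factor of the hydrogen peroxide-forming oxidase Duox2) and Steap4 (a metalloreductase) passed the test when no filter was used. Duoxa2 was at 186, 114, 86.4, 60.0 and 28.2 in IL10R and 15.7, 21.9, 9.11 and 14.7 in IL10R_P19, with a log2 difference of -2.36 (limma adjusted p 0.022). For Steap4 the log2 difference was -2.18 (adjusted p 0.021). Among tested members that were not called, Cxcl5, a chemokine for neutrophils, was at 618, 84.0, 89.8, 76.7 and 1.61 against 4.35, 2.85, 0.651 and 1.02. Here IL10R library 68 fell within the IL10R_P19 range, and the log2 difference was -4.45 (SE 1.28, limma adjusted p 0.071). Without that library, the one nearest the IL10R_P19 group, the limma adjusted p was 0.0019, which is no independent support. Saa3 (log2 difference -2.70, adjusted p 0.21) and S100a9 (-2.67, adjusted p 0.35) were high in IL10R library 27 above all, at 1039 and 925.

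**Figure D2:**
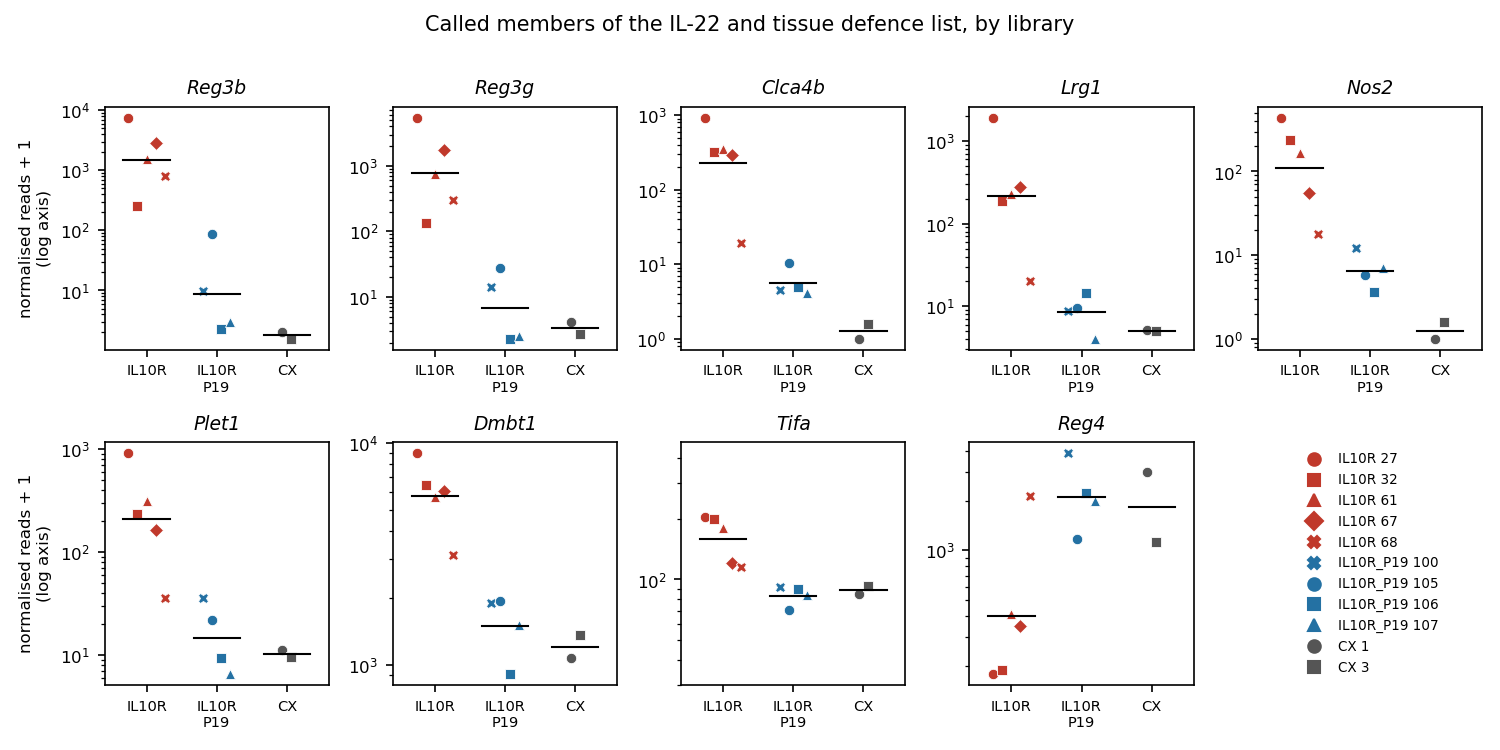
Normalised reads plus 1 (log axis) of the 9 called members of the IL-22 and tissue defence list in each IL10R, IL10R_P19 and CX library; symbols mark libraries and bars the geometric mean of the plotted values. In 8 panels all IL10R_P19 libraries lie below all IL10R libraries, with IL10R library 68 (cross) the nearest in 6 of them, and Reg4 runs the other way.

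Outside that list, Tac1 (the precursor of substance P) stood at 468, 200, 170, 112 and 24.9 in IL10R and 9.57, 23.8, 13.7 and 10.7 in IL10R_P19, and fell by 3.23 on the log2 scale (SE 0.60, limma adjusted p 0.011). C1s1, a protease of the classical complement pathway, had a log2 difference of -1.97 (SE 0.42, adjusted p 0.019). In a limma fit of the 2 groups alone neither Tac1 (adjusted p 0.055) nor C1s1 (0.067) was called. Cd300lf (-2.13, adjusted p 0.035) and Ly6c1 (-1.59, adjusted p 0.023) were the 2 called of 13 tested monocyte genes, in cells sorted as Ly6c-. In both the groups overlapped, and each lost its call without IL10R library 32 or 67 or without any of P19_105, P19_106 and P19_107, and Cd300lf also without IL10R library 61. Bcl3, a nuclear partner of NF-kB, fell by 1.16 (SE 0.28, adjusted p 0.032), and Cd38, a cell-surface enzyme that consumes NAD, fell by 1.02 (SE 0.23, adjusted p 0.023). The remaining lower genes named by rule were Mgat4c, Ddah1, Tinagl1 and B3galt5, with log2 differences from -1.27 to -0.90. All 10 of these genes lost their call without at least 1 library; the highest adjusted p, without P19_106 or P19_107, lay between 0.053 (Tac1) and 0.16 (Ddah1).

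The list of resident tissue macrophage genes held calls in the other direction. Of 39 tested members of that list 18 rose and none fell, and 38 had a positive log2 difference, with a median of 0.82. In 9 of the 39 all IL10R_P19 libraries lay above all IL10R libraries, against 4.07% of all genes tested. Among the members that rose were Mrc1, Igf1, Hpgds, Dab2, Adgre1, Npl, Sepp1, Cd4, Trem2, Ms4a7, Csf1r, Cd93, Cd81, Cd68, Cx3cr1, Stab1 and Pf4. In sorted bulk samples, fewer cells of a type and less RNA per cell cannot be told apart.

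Mrc1, an endocytic receptor for mannose-bearing glycoproteins, was at 84.5, 104, 196, 142 and 254 in IL10R libraries 27, 32, 61, 67 and 68 and at 442, 443, 483 and 463 in IL10R_P19. The 4 IL10R_P19 libraries were nearly level and all above the IL10R group, and CX held 839 and 631. Its log2 difference was 1.66 (SE 0.28, limma adjusted p 0.0067). Igf1 was at 44.2, 38.4, 45.9, 45.6 and 187 in IL10R and 354, 225, 253 and 225 in IL10R_P19, with CX at 313 and 245. IL10R library 68 stood apart from the 4 other IL10R libraries, and the log2 difference was 2.14 (SE 0.35, adjusted p 0.0067).

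Csf1r, the receptor for the growth factor that macrophages need to live, was at 1212, 984, 1044, 945 and 1336 in IL10R and 1281, 2161, 2214 and 2264 in IL10R_P19. P19_100 lay inside the IL10R range while the other 3 were well above it, and the log2 difference was 0.82 (SE 0.18, limma adjusted p 0.021). Cx3cr1, the fractalkine receptor that marks gut macrophages, showed the same arrangement, at 148, 204, 173, 126 and 218 against 208, 493, 406 and 480 (log2 difference 1.14, SE 0.29, adjusted p 0.044). With 1 library left out, Csf1r lost its call in 6 of 9 fits (limma adjusted p 0.11 at the highest, without P19_106). Cx3cr1 lost its call in 7 of 9 (0.17 at the highest, without P19_107).

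Sepp1, a selenium carrier, rose from 2941 ± 917 (SD, n = 5) to 5789 ± 867 (SD, n = 4) normalised reads, a log2 difference of 1.02 (limma adjusted p 0.017). Dab2, an endocytic adaptor, had a log2 difference of 1.42 (adjusted p 0.013), Adgre1, which encodes F4/80, one of 0.81 (adjusted p 0.016), and Trem2, a lipid-sensing receptor, one of 0.86 (adjusted p 0.018). The complement gene C1qa (0.34, adjusted p 0.22), the haemoglobin scavenger Cd163 (1.09, adjusted p 0.14) and the folate receptor Folr2 (1.76, adjusted p 0.14) were not called. Fcrls was not called either (2.08, SE 0.60, adjusted p 0.079), although its groups did not overlap. Itgax, which encodes CD11c, was the member with a negative value, -0.06.

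Like the defence list, the count varied with single libraries. It was 25 without P19_100 and 26 without IL10R library 68, but 14, 6, 11 and 7 without IL10R library 27, 32, 61 and 67, and 4, 3 and 3 without P19_105, P19_106 and P19_107. Mrc1 and Igf1 were among those that kept their calls throughout. edgeR called 23 tested members higher, DESeq2 26, and neither called any lower. A limma fit of the 2 groups alone called 14 higher and none lower. The 41 listed genes together took 2.01 to 2.96% of the reads of the IL10R libraries and 2.65% (P19_100) and 4.02 to 4.24% (the other 3) in IL10R_P19, against 4.90 and 4.98% in CX.

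**Figure D3:**
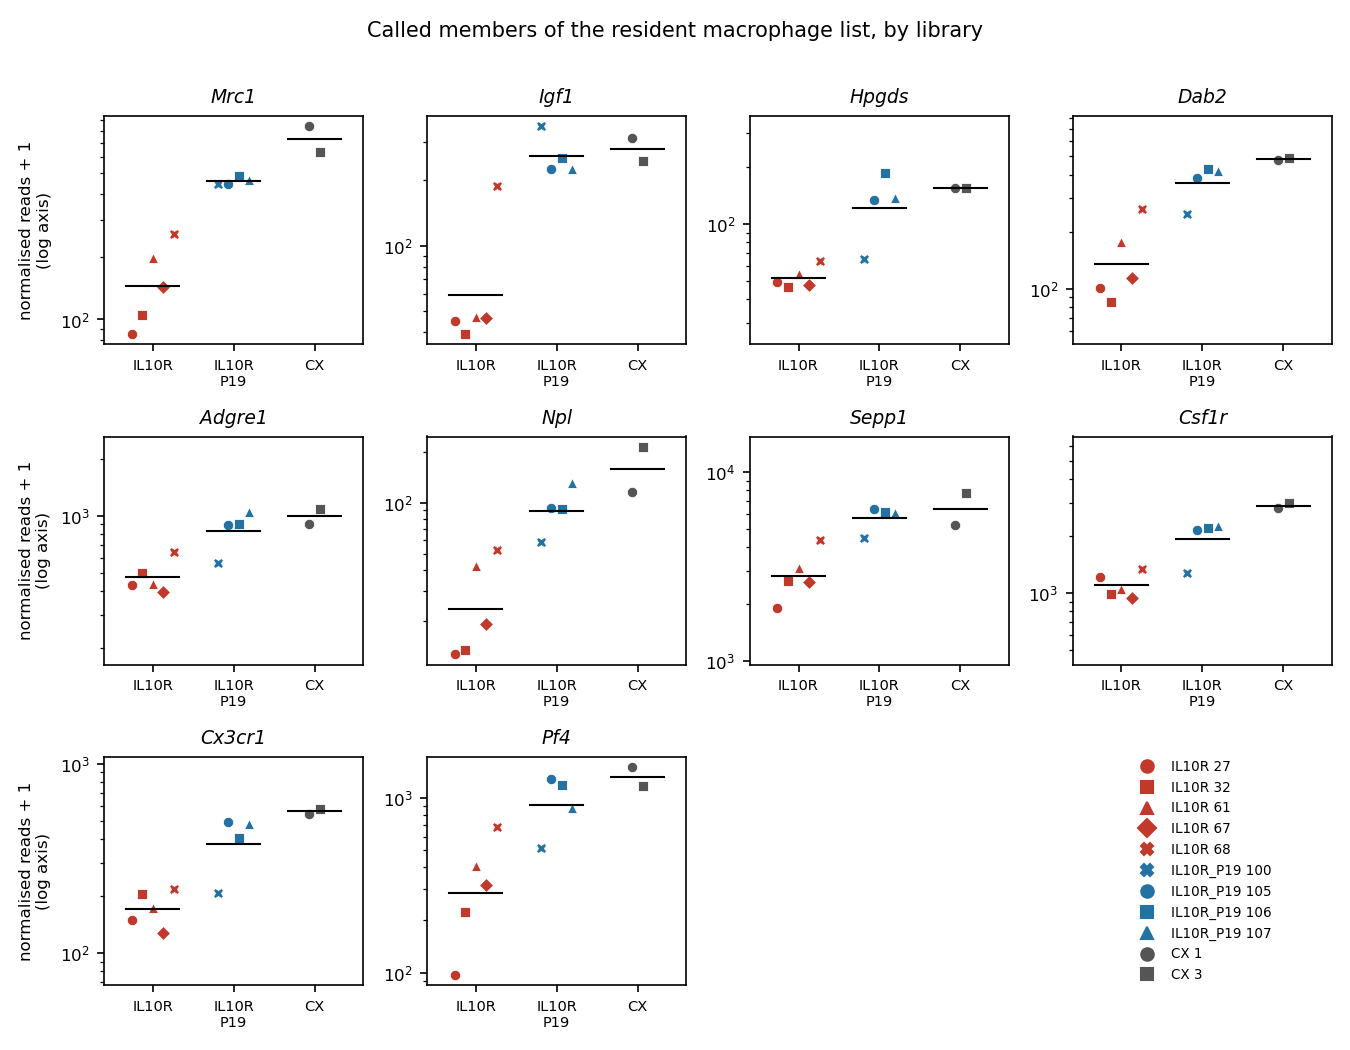
Normalised reads plus 1 (log axis) of 10 of the 18 called resident macrophage genes in each IL10R, IL10R_P19 and CX library; symbols mark libraries and bars the geometric mean of the plotted values. For Csf1r, Cx3cr1, Dab2, Adgre1 and Pf4, P19_100 (blue cross) lies within the IL10R range, and IL10R library 68 (red cross) is the highest IL10R library in all panels.

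In other lists of macrophage functions a minority of the tested members was called. Of 7 Fc receptor genes 2 rose, and both, Fcgr3 (a low-affinity IgG receptor) and Fcgrt, kept their calls with each library left out. Fcgr3 was at 616, 506, 568, 487 and 705 in IL10R and 941, 1019, 1008 and 1054 in IL10R_P19 (log2 difference 0.81, SE 0.13, limma adjusted p 0.0067). Fcgrt was at 120, 117, 132, 144 and 204 against 300, 269, 289 and 214 (0.92, SE 0.16, adjusted p 0.0067). The median of the 7 was 0.64, and all 7 had positive values.

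Among 19 tested enzymes of prostanoid and leukotriene synthesis, 4 rose and none fell, with a median of 0.32. Ptgs1, which makes the prostaglandin precursor, was at 59.8, 89.2, 117, 119 and 199 in IL10R and 230, 376, 273 and 366 in IL10R_P19 (log2 difference 1.49, SE 0.25, limma adjusted p 0.0067). Hpgds (prostaglandin D synthase) and Tbxas1 (thromboxane synthase), which use its product, differed by 1.23 and 0.75 (adjusted p 0.012 and 0.011), and Pla2g15, a lysosomal phospholipase, by 0.77 (adjusted p 0.035). Without P19_107 the list held 1 call, that of Ptgs1, and without P19_106 it held 2.

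Of 31 tested lysosome and phagocytosis genes, 4 rose (Man2b1, Ctsb, Tpp1 and Cd68) and none fell, with a median of 0.33. Ctsb, which encodes the protease cathepsin B, was at 1891 ± 219 (SD, n = 5) and 2841 ± 283 (SD, n = 4), a log2 difference of 0.59 (limma adjusted p 0.018). These 4 calls were all absent without IL10R library 32 or without P19_105, P19_106 or P19_107, when the list held none. In iron handling Hfe, a regulator of iron uptake, and Trf, the iron carrier transferrin, rose by 1.05 and 1.09 (adjusted p 0.0067 and 0.012), 2 of 16 tested. In lipid handling Npc2, which moves cholesterol out of lysosomes, rose by 0.57 (adjusted p 0.017), 1 of 22. Trf lost its call without P19_106 or P19_107 and Npc2 without those or IL10R library 32, with adjusted p of 0.063 and 0.079 at the highest, without P19_107, while Hfe kept its call throughout. Tgfb1, a cytokine that shapes gut macrophages, rose by 0.72 (SE 0.17, adjusted p 0.032), and it and Igf1 were the 2 called of 27 growth factor and matrix genes. Tgfb1 lost its call without any of 7 libraries, with an adjusted p of 0.17 at the highest, without P19_106.

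Few antigen presentation genes were called. In 5 of 11 tested MHC class II and co-stimulation genes all IL10R_P19 libraries lay above all IL10R libraries, against 4.07% of all genes tested. The median was 0.46, and H2-DMa, a peptide exchange factor, was the 1 call. It was at 1000, 931, 1056, 1097 and 890 in IL10R and 1355, 1456, 1548 and 1634 in IL10R_P19 (log2 difference 0.59, SE 0.12, limma adjusted p 0.013). H2-DMa was not called without P19_106 (0.061) or P19_107 (0.077). None of 22 MHC class I and immunoproteasome genes was called by limma (2 higher and 2 lower at an unadjusted p under 0.05; edgeR 1 higher, DESeq2 1 higher and 1 lower), and their median was -0.15.

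**Figure D4:**
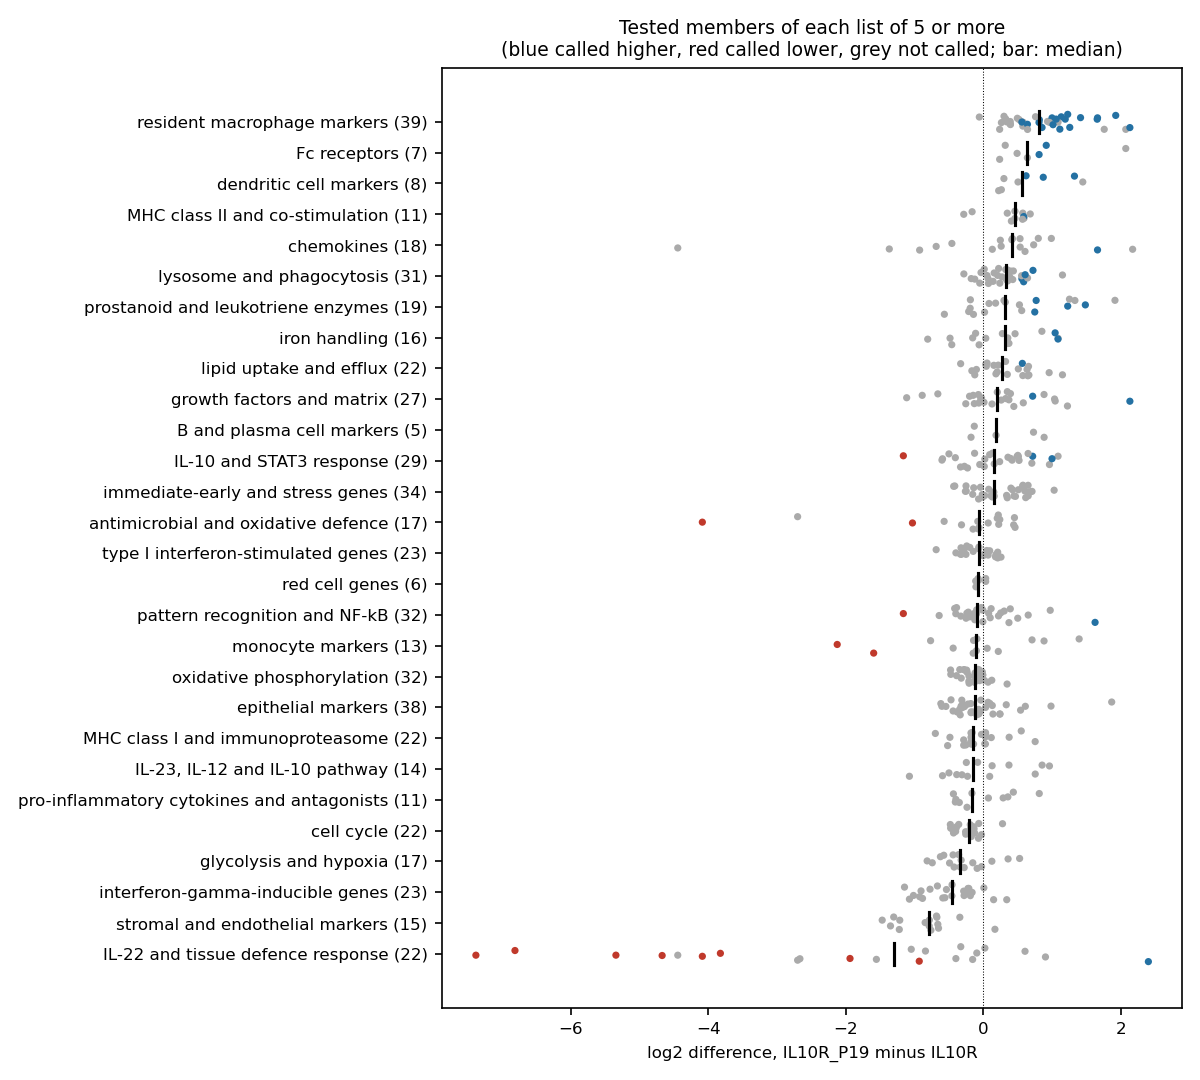
Log2 differences (IL10R_P19 minus IL10R, horizontal axis) of the tested members of each gene list with at least 5 of them, the number in brackets; blue points were called higher, red lower, grey not called, and bars are medians. The resident macrophage list has the highest median (0.82) and the IL-22 and tissue defence list the lowest (-1.30).

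Classical inflammatory cytokines did not pass the test. None of 11 tested cytokines and antagonists was called by limma, edgeR or DESeq2, with 1 higher and none lower at an unadjusted p under 0.05. Il1b was at 1374, 1264, 1761, 1283 and 1144 in IL10R and 782, 1428, 2042 and 1799 in IL10R_P19, a log2 difference of 0.08 with a 95% interval from -0.55 to 0.70. For Tnf the difference was -0.35, with an interval from -1.17 to 0.47 (adjusted p 0.72). Of 18 chemokines, Pf4, a resident macrophage chemokine, was the 1 called by limma (1.66, SE 0.42, adjusted p 0.048). Pf4 lost that call without any library but IL10R 68 and P19_100. edgeR called 1 chemokine higher and 1 lower, and DESeq2 3 higher and 2 lower. At an unadjusted p under 0.05, 6 were higher and 1 lower, against 659 and 437 of all 6612 genes. Ccl2 was not called (0.73, limma adjusted p 0.18).

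None of 23 genes induced by interferon-gamma was called by limma or edgeR, whereas DESeq2 called 2 lower and 3 were lower at an unadjusted p under 0.05. Of the 23, 20 had a negative value and the median was -0.46. Cxcl9, a T cell chemokine, was at 1260, 1375, 1324, 366 and 205 in IL10R and 328, 380, 234 and 645 in IL10R_P19. The 3 highest IL10R libraries stood above the IL10R_P19 group and the other 2 within or below it, so that the log2 difference was -0.93 (SE 0.53, limma adjusted p 0.42). Gbp2, a guanylate-binding defence protein, differed by -1.15 (SE 0.42, adjusted p 0.17). None of 23 type I interferon-stimulated genes was called by limma, edgeR or DESeq2 (1 lower at an unadjusted p under 0.05; median -0.06).

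Some genes for secreted proteins that epithelial cells make were called higher. They were picked after their values were seen and stand for no list. Ang4, an antimicrobial ribonuclease, was at 78.0, 84.0, 104, 209 and 1824 in IL10R and 3115, 741, 1798 and 1550 in IL10R_P19, with CX at 1775 and 1294. The 4 other IL10R libraries were low while IL10R library 68 was as high as the IL10R_P19 libraries, and P19_100 was the highest of all. The log2 difference of Ang4 was 3.04 (SE 0.70, limma adjusted p 0.031), the highest of the called genes. Reg4 had 177, 188, 409, 347 and 2147 against 3877, 1171, 2224 and 1996 (log2 difference 2.40, SE 0.56, adjusted p 0.032). Mptx1, a pentraxin, and Clps, colipase, differed by 1.75 and 2.90 (adjusted p 0.045 and 0.031). Retnla, a resistin-like protein that macrophages and epithelium can both make, differed by 2.48 (adjusted p 0.048), with 805 normalised reads in P19_100 and at most 187 in the other 3.

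These calls did not hold under the count tests. For Ang4, Reg4, Mptx1 and Clps edgeR gave adjusted p of 0.22, 0.14, 0.14 and 0.10, and DESeq2 0.13, 0.064, 0.090 and 0.082. A fit of the 2 groups alone gave 0.12, 0.11, 0.13 and 0.11. Leaving out any library but IL10R 68 ended the call of Reg4, Mptx1, Clps and Retnla, and that of Ang4 likewise except without P19_105; the highest adjusted p, without P19_106, were 0.11 (Ang4, Reg4 and Clps) and 0.15 (Mptx1), and that of Retnla was 0.14, without P19_107. A pair of goblet cell genes was high in the same 2 libraries and was not called: Clca1 (1.87, adjusted p 0.097), at 8461 and 9520 in IL10R library 68 and P19_100, and Retnlb (0.91, adjusted p 0.35), at 2945 and 3250.

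**Figure D5:**
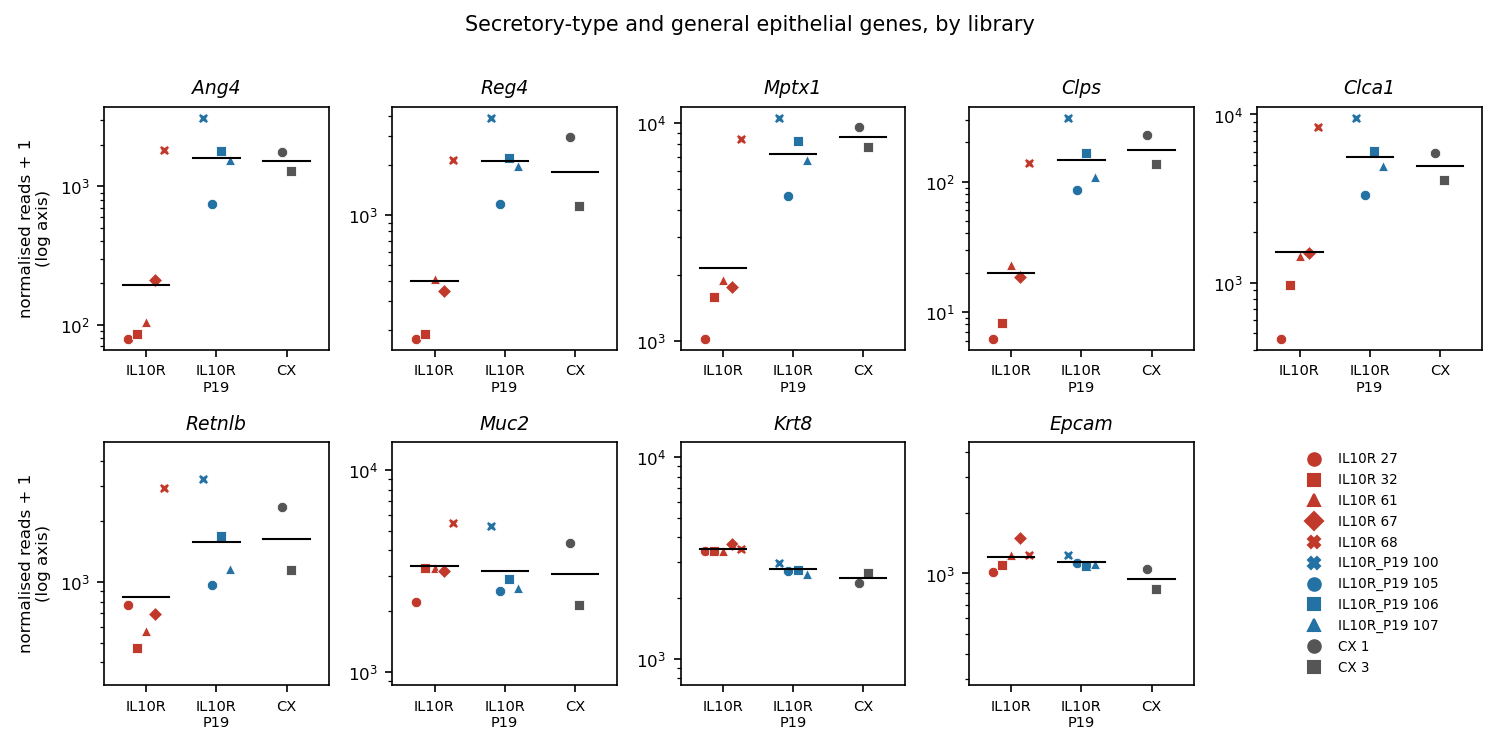
Normalised reads plus 1 (log axis) of secretory-type genes (Ang4, Reg4, Mptx1, Clps, Clca1, Retnlb, Muc2) and general epithelial genes (Krt8, Epcam) in each IL10R, IL10R_P19 and CX library; symbols mark libraries and bars the geometric mean of the plotted values. IL10R library 68 and P19_100 (crosses) are the highest of their groups in the 7 secretory panels; for Krt8 and Epcam P19_100 is again the highest of its group, while the highest IL10R library is 67.

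Epithelial transcripts were present in every library although the sort selects CD45+ cells. The summed share of the 38 listed epithelial markers was 2.91 to 4.39% of reads in IL10R, 3.34 to 4.11% in IL10R_P19 and 3.20 to 3.31% in CX. The ranges of the IL10R groups overlap, and all 4 IL10R_P19 libraries lay above both CX libraries. In every IL10R library and in P19_100 this share was above that of the 41 resident macrophage markers, and in the others it was below. The medians were 3.78% against 2.49% in IL10R, 3.59% against 4.08% in IL10R_P19 and 3.25% against 4.94% in CX. IL10R library 68 (4.39%, against 2.91 to 3.85% in the other 4) and P19_100 (4.11%, against 3.34 to 3.65% in the other 3) had the highest share of their groups, as they had the highest levels of the secretory genes. None of the 38 was called by limma or edgeR (DESeq2 2 lower; 2 higher and 4 lower at an unadjusted p under 0.05), and their median was -0.12. The keratin Krt8 was at 3493 ± 123 (SD, n = 5) and 2772 ± 156 (SD, n = 4), not overlapping (log2 difference -0.33, SE 0.15, limma adjusted p 0.27). The adhesion molecule Epcam differed by -0.08 (adjusted p 0.87) and the mucin Muc2 by -0.08 (adjusted p 0.95). The defence genes that fell and the secretory genes that rose are, as background, largely epithelial; the part of epithelial RNA in those results was not tested.

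Markers of other cells moved with the groups in part. Stromal and endothelial markers (22 listed of 27) made up 0.172 to 0.380% of reads in IL10R, 0.0666 to 0.194% in IL10R_P19 and 0.152 to 0.196% in CX; 14 of the 15 tested had negative values, their median was -0.78, and none was called by limma or edgeR (DESeq2 6 lower; 12 lower at an unadjusted p under 0.05). Neutrophil markers (7 listed of 23) took 0.0236 to 0.125% in IL10R and 0.0182 to 0.0265% in IL10R_P19. Markers of T cells, NK cells and innate lymphoid cells (4 listed of 30) took 0.0190 to 0.177% and 0.0164 to 0.0233%. The highest value of both was that of IL10R library 27, which also held the most Reg3b. Dendritic cell markers (13 of 23) took 0.104 to 0.142% and 0.147 to 0.197%, which do not overlap, and Clec10a, Batf3 and Amica1 rose, 3 of 8 tested (median 0.57). Without P19_106 Batf3 was not called (adjusted p 0.061), and Amica1 lost its call without any of 6 libraries, at the highest 0.13 without P19_105. Clec10a, a lectin that macrophages also carry, was at 23.3 ± 7.86 (SD, n = 5) and 57.9 ± 6.60 (SD, n = 4), a log2 difference of 1.33 (limma adjusted p 0.0067). Of these markers S100a9 alone was listed at 0, in 1 of the 9 libraries, and the part of other cells in the results was not tested.

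A last comparison asked how far the IL10R_P19 libraries stood from the CX control. Of 6612 genes 2 were called by limma (0.0302%), Il10ra and Ppfia4, and 333 had an unadjusted p under 0.05. edgeR called 4 of 8812 genes and DESeq2 13 of 8816, those below the filter on low genes included. Il10ra had a log2 difference, IL10R_P19 minus CX, of -4.90 with a 95% interval from -6.24 to -3.56 (limma adjusted p 0.0019). Ppfia4, a scaffold protein of the liprin family, was at 67, 162, 158 and 209 in IL10R_P19, 21.7 and 32.5 in CX and 93.3 to 182 in IL10R. In the antibiotic-treated groups of the same table its mean was 185 (IL10R_abx) and 194 (IL10R_littermate_abx). The littermates had a mean Il10ra of 158, so a high Ppfia4 was not confined to libraries with low Il10ra. Its difference from CX was 2.33 with an interval from 1.6 to 3.06 (adjusted p 0.0092), and with the 2 groups fitted alone it was not called (adjusted p 0.17). With 2 CX libraries neither call stood alone: without CX library 1 or 3 no gene was called, with 123 and 333 genes at an unadjusted p under 0.05, the single CX library then being assumed to vary like the other groups.

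A p that misses the threshold does not show equal levels, and the intervals of the IL10R_P19 minus CX differences were wide. For Reg3b the difference was 2.30 with a 95% interval from -1.46 to 6.07, and for Clca4b 2.15, from -0.53 to 4.82. For Dmbt1 it was 0.31, from -0.62 to 1.25. Mrc1 differed by -0.67, from -1.42 to 0.08, and Csf1r by -0.58, with an interval from -1.07 to -0.08 that excludes 0 (adjusted p 0.89). Set beside these, the IL10R minus CX differences of the same genes were 9.69 (Reg3b), 7.49 (Clca4b), 2.25 (Dmbt1), -2.33 (Mrc1) and -1.40 (Csf1r), all called; these comparisons share the CX libraries, and those of IL10R share their IL10R libraries with the main comparison.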

How the data were processed

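Per the labels' protocols, RNA with a poly(A) tail was selected on oligo-dT beads, then transcribed in vitro for amplification and broken into fragments. The submitters' processing notes name the build mm9 and, as tools, HOMER, HISAT 0.1.6 and bcl2fastq. Annotation and strand use were not given there. The deposited values are signal, that is, each library's gene reads over a factor of its own: 100% of the values were whole multiples of 1 read within 0.01 read. The deposited table lists 8816 genes, each reaching at least 37.0 in some library; 15605 rows without a gene name held no value.

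The fit used log2(value + 0.997), which understates changes of low genes. The added 0.997 is the smallest value above 0 of a library, taken as the median of the 18. Genes whose mean over the 18 libraries of the table lay in the lower quartile (up to 40.4) were left out, leaving 6612. All 5 groups (IL10R, IL10R_P19, CX and 2 given antibiotics) entered 1 limma fit (limma 3.58.1, R 4.3.3, trend and robust), and the Benjamini-Hochberg adjustment ran over all genes tested; an adjusted p comes from limma unless edgeR 4.0.16 or DESeq2 1.42.0 is named. Those tools were run on the recovered reads without the quartile filter, on 8812 (edgeR) and 8816 (DESeq2) genes. Errors are SE of log2 differences or SD over libraries. Depth ranged from 1100692 to 2775974 reads in the 9 IL10R and IL10R_P19 libraries, and the lowest of the 18 held 747046; no pair of libraries of a group agreed within sampling noise (smallest chi-square per degree of freedom 3.58), so all counted separately. The scripts were tested on simulated data. Genes that share reads with close copies could not be separated.

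The genes compared and the lists were chosen with earlier results of these data known. Named by rule were Il10ra, the IL-23 and IL-12 chains and receptor where listed, the 15 highest and 15 lowest called genes without overlap, the 10 smallest adjusted p in each direction, up to 6 called members per list, and Il1b, Tnf, Cx3cr1, Csf1r, Ccl2 and Cd163; predicted, antigen receptor and sex-linked genes were left out. Ang4, Reg4, Mptx1, Clps, Retnla, Retnlb, Clca1, Muc2, Krt8, Epcam, Il10, Cxcl5, Saa3, S100a9, Cxcl9, Gbp2, Sepp1, Trem2, C1qa, Folr2, Fcrls, Itgax, Duoxa2, Steap4, Tifa, Jak1, Tyk2, Stat3, Socs3, Ppfia4 and the genes named in the closing section were singled out after their values were seen. Promoter windows came from RefSeq (GRCm38.p6), matched by symbol or synonym for 5340 tested genes (80.8%). Results for 1 gene are not reported here.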

Additional observations from a re-analysis of the deposited data

Results flagged for a closer look

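Of 216 groups of 4 or 5 libraries looked at (98 named genes and 10 sets of markers, in IL10R and IL10R_P19), 17 held a library far from the rest, where chance flags about 5%. P19_100 accounted for 8 of them. It was low for Csf1r (1281, against 2161 to 2264 in the other 3), Rab11fip5 (103.5, against 138.7 to 144.8), Cd68 (313, against 434.9 to 448), Sepp1 (4504, against 6106 to 6405), Cd93 (213, against 427.2 to 464.2) and Fcrls (121.7, against 153.2 to 159). Resident macrophage markers took 2.652% of its reads, against 4.018 to 4.24%, and the 1 listed mast cell and eosinophil marker 0.008822%, against 0.001621 to 0.002537%.

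IL10R library 68 was high for Igf1 (186.6, against 38.37 to 45.94 in the other 4), Trem2 (141.6, against 76.7 to 84.0), Stab1 (255, against 115.7 to 136.9) and Retnlb (2945, against 468.7 to 768.5). IL10R library 27 had the most reads from markers of neutrophils (0.1254%, against 0.02358 to 0.0506%) and of T cells, NK cells and innate lymphoid cells (0.1772%, against 0.01898 to 0.04937%). The remaining 3 were Mgat4c in P19_105 (252.2, against 148.7 to 158.9), Tef in IL10R library 32 (11.41, against 14.3 to 14.48) and Nxpe4 in P19_106 (1.302, against 3.478 to 3.806), the last of these a difference of a few reads.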

How the results depend on the processing

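No paired analysis was possible because the IL10R, IL10R_P19 and CX libraries compared share no replicate numbers. The calls of IL10R_P19 against IL10R (127 higher, 34 lower) became 1304 with library quality weights, 353 with edgeR and 562 with DESeq2, and ranged from 17 to 380 with 1 library left out. The share called higher was 78.9%, and 62.1% with weights, 60.6% and 55.3% with edgeR and DESeq2, and 48.9% of 219 with the 2 groups fitted alone. The edgeR and DESeq2 shares are over 8812 and 8816 genes, those below the filter on low genes included. Among the 6612 genes tested by limma, edgeR called 195 higher and 86 lower, and DESeq2 275 higher and 165 lower. Another pseudocount, filter or scaling, or no trend and robust setting, gave 150 to 180. The 2 calls against CX became 13 (DESeq2), 4 (edgeR), 7 (library quality weights), 6 (the 2 groups alone, 1 of the 2 among them) and 1 (genes below the median left out), and ranged from 0 to 2 with 1 library left out. Of 1873 refitted values for 102 named results, 1523 kept direction and side of the threshold, 308 lost the call, 35 gained it and 7 changed sign, all for genes not called. With 1 library left out Il1b ranged from -0.098 (without P19_106) to 0.36, and was -0.037 without P19_107. Tnf ranged from -0.64 to 0.058 (without P19_100), and was 0.12 with library quality weights. Muc2 ranged from -0.33 to 0.10 (without IL10R library 68), and was 0.032 and 0.015 without P19_105 and P19_107. The cause of these changes was not tested. Where 1 read is worth up to 1.30 normalised reads, values of a few normalised reads rest on a few reads.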

Other observations

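The genes of this paragraph kept their call in each fit with 1 library left out, were picked from those that did and stand for no list. Slc9a9, an endosomal sodium-proton exchanger, was at 20.8, 22.8, 31.5, 29.6 and 41.8 normalised reads in IL10R libraries 27, 32, 61, 67 and 68 and at 45.2, 104, 99.6 and 87.4 in P19_100, P19_105, P19_106 and P19_107 (log2 difference 1.46, SE 0.24, limma adjusted p 0.0067). All IL10R_P19 libraries lay above all IL10R libraries, P19_100 only just. Man1c1, a mannosidase of the Golgi, and Rab11fip5, which works with Rab11 in recycling endosomes, differed by 1.38 and 0.91. P2rx7, the ATP-gated channel of macrophages, was at 52.0, 34.2, 39.1, 46.3 and 53.1 against 69.6, 85.6, 93.8 and 83.8 (0.88, SE 0.15, adjusted p 0.0067), and Cd84, a receptor of the SLAM family, differed by 1.23.

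Gatm and Gamt, the successive enzymes of creatine synthesis, both rose, by 0.82 (adjusted p 0.013) and 1.20 (adjusted p 0.048). Gatm lost its call without P19_106 (0.061) or P19_107 (0.071), and Gamt without IL10R library 27, 32 or 67 or P19_105 or P19_106 (0.15 at the highest). Ly86, a partner of the receptor RP105, rose by 1.63 (SE 0.34, adjusted p 0.018) and with Bcl3 made up the calls among 32 pattern recognition and NF-kB genes; it lost its call without IL10R library 32, P19_106 or P19_107, with an adjusted p of 0.088 at the highest.

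None of 22 cell cycle genes was called by limma, edgeR or DESeq2, nor had any an unadjusted p under 0.05. Of 17 genes of glycolysis and hypoxia limma called none (7 lower and 1 higher at an unadjusted p under 0.05; edgeR 1 lower, DESeq2 2 lower; median -0.34). Limma called none of 34 immediate-early and stress genes either (10 higher at an unadjusted p under 0.05; edgeR none, DESeq2 3 higher), with a median of 0.16. Of 32 genes of oxidative phosphorylation limma and edgeR called none and DESeq2 1 lower, with 5 lower at an unadjusted p under 0.05 and a median of -0.12.

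Dbp and Tef, transcription factors driven by the circadian clock, rose by 1.27 and 1.10 (adjusted p 0.038 and 0.017), 2 of the 8 clock genes tested out of 12 listed, a list written after these values were seen. Tef was at 14.3, 11.4, 14.4, 14.4 and 14.5 in IL10R and 20.0, 40.9, 36.5 and 29.5 in IL10R_P19, without overlap. Dbp lost its call without any of 6 libraries (0.18 at the highest) and Tef without P19_105, P19_106 or P19_107 (0.095). The labels used here give no hour of collection, and its part in these values was not tested. Nxpe4 held 62.1 and 65.5 normalised reads in the CX libraries and between 1.30 and 4.83 in the 9 IL10R and IL10R_P19 libraries. Its mean was also low in the antibiotic-treated groups, at 3.62 (IL10R_abx) and 5.74 (IL10R_littermate_abx). It was below the filter on low genes. In the comparison with CX without a filter its log2 difference was -4.06 (limma adjusted p 0.055), with adjusted p of 8.64e-06 by edgeR and 3.4e-16 by DESeq2.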
